A study of Mus musculus with 4 samples.

Results

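The Hox genes, which encode homeodomain transcription factors, were read on 4 arrays of mouse brain RNA. They were taken by symbol alone, as the rows of the deposited table whose only gene symbol was Hox followed by a cluster letter (a to d) and a number. These were 37 genes with 1 row each, of 19938 genes with a row of their own. Of them, 14 belonged to paralogue groups 1 to 5 and 23 to groups 6 to 13. Hoxb8, which had a row only together with Hoxb7, is not among them. ICR mice aged 1 month at the start received daily intraperitoneal injections of ketamine, a blocker of the NMDA receptor, at 30 mg/kg, or of normal saline. After 3 months, tissue described as prefrontal cortex was dissected, and RNA of 2 samples per treatment was hybridised to Mouse Gene ST arrays. The labels give every sample as female, whereas the methods give male mice. For each of the 4 arrays the sample title gives one treatment and the source name in the labels gives the other. The arrays are therefore called titled saline and titled ketamine, and each difference is titled ketamine minus titled saline on the log2 scale of the deposited RMA values. By the source names, the sign of every such difference would turn.

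Hox genes lie in 4 clusters, A to D, and genes at the same place in different clusters are paralogues that share a group number. In the embryo they are switched on in an order that follows their place in the cluster. The low groups reach farthest forward and mark hindbrain and neck segments, and the high groups mark the trunk, the limbs and the tail. The forebrain, the midbrain and the first hindbrain segment, from which the cerebellum arises, form without Hox expression, while neurons of the medulla and of much of the pons descend from Hox-expressing segments.

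The labelled tissue was checked against markers of brain regions. All 12 measured of 14 listed forebrain factors were above background on the arrays titled saline. On those titled ketamine 11 of them were lower at an adjusted p under 0.05 in limma and none was higher. Of all rows, 9.71% were lower and 23.4% higher. Tbr1, a factor of cortical projection neurons, read 8.37 and 8.44 on the arrays titled saline and 3.73 and 3.69 on those titled ketamine, which went against the label of prefrontal cortex there. All 15 markers of cerebellar neurons were higher on the arrays titled ketamine, against 23.4% of all rows, with a median difference of 3.24. The arrays titled saline were not alike either, since Gabra6, a receptor subunit of cerebellar granule cells, read 6.73 on the first and 3.28 on the second. Treatment and tissue cannot be told apart on these arrays, and in bulk RNA fewer cells of a type and less RNA per cell cannot be told apart. Over all 21789 tested rows the median difference was 0.13. In 916 of these rows the values of the 2 arrays titled saline were equal to the last deposited digit, as were those of the 2 arrays titled ketamine in 95, against 0 or 1 for each pair of arrays across the titles. Whether the 4 arrays were summarised together is not given in the sources used here. Every level set across the titles, and every p-value, takes them as on 1 scale. With 2 arrays against 2, an exact permutation test cannot give a two-sided p below 0.333, and the p-values of limma measure only the spread between these samples, which may be technical.

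The Hox values were low on every array. They ran from 2.90 to 5.92, while the median of all tested rows was 5.90 and 5.91 on the arrays titled saline and 6.04 on both titled ketamine. As a background level, the 95th percentile of 1035 rows of olfactory receptors, genes of the nasal epithelium, was taken on each array. It was 4.20 and 4.43 on the arrays titled saline and 4.56 and 4.46 on those titled ketamine. On both arrays titled saline 17 Hox genes (45.9%) lay above this level, against 71.6% of all rows, and on both titled ketamine 15 (40.5%), against 71.1% of all rows. Of groups 1 to 5, 5 of 14 genes were above it on both arrays titled saline and 7 on both titled ketamine. Of groups 6 to 13, 12 of 23 genes were above it on both arrays titled saline and 8 on both titled ketamine. The values of groups 6 to 13 were not lower there, with medians of 4.37 and 4.48 on the arrays titled saline and 4.44 and 4.43 on those titled ketamine, and the background level itself was higher on the arrays titled ketamine. The medians of groups 1 to 5 were 4.11 and 4.33 on the arrays titled saline and 4.56 and 4.78 on those titled ketamine. Just above the background on the arrays titled ketamine were Hoxa13, Hoxb5 and Hoxd10, and just below it Hoxc8, Hoxa5 and Hoxa7, which means that small shifts decide these counts.

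**Figure D1:**
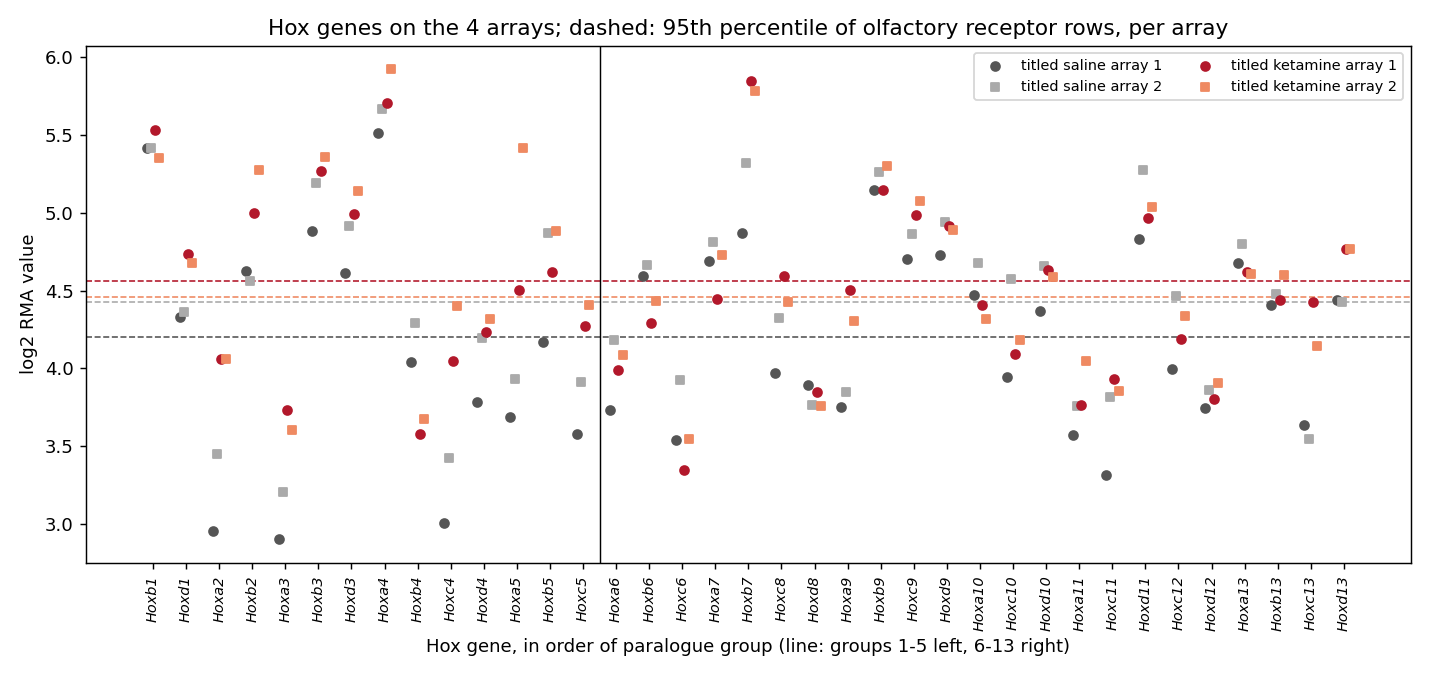
Log2 RMA values (y axis) of the 37 Hox genes (x axis, in order of paralogue group) on each of the 4 arrays, with the 95th percentile of the olfactory receptor rows of each array as a dashed line. All values lie between 2.90 and 5.92, on both sides of the dashed lines, with 17 genes above them on both arrays titled saline and 15 on both titled ketamine.

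The question between the titles was which positions of the Hox code differed. Of the 14 genes of groups 1 to 5, 7 were higher at an adjusted p under 0.05 in limma and 1 was lower, where 23.4% of all rows were higher and 9.71% lower. The other 6 did not pass. Of the 7, Hoxb2 and Hoxd1 lay above the background level on both arrays titled ketamine. Hoxa5 is a gene of neck segments that is also needed in the lung. It read 3.69 and 3.93 on the arrays titled saline and 4.50 and 5.42 on those titled ketamine, a difference of 1.15 (standard error 0.271, adjusted p = 0.0171 in limma). The titles did not overlap, but the arrays titled ketamine lay 0.91 apart. The values on the arrays titled saline were below the background level, so that the size of the difference is not resolved. The difference of Hoxa5 was 1.61 without titled ketamine array 1 and 0.69 without array 2, and without array 2 it was smaller than that of Hoxc4, 0.83, and of Hoxa2, 0.86.

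Hoxc4, also a gene of neck segments, read 3.01 and 3.43 on the arrays titled saline and 4.05 and 4.40 on those titled ketamine, a difference of 1.01 (standard error 0.178, adjusted p = 0.00556 in limma). Hoxc5, its neighbour in cluster C, read 3.58 and 3.91 on the arrays titled saline and 4.27 and 4.41 on those titled ketamine, a difference of 0.60 (adjusted p = 0.0170 in limma). Both genes were separate between the titles and below the background level on all 4 arrays. Hoxa2, whose domain reaches farthest forward of all Hox genes, read 2.95 and 3.45 on the arrays titled saline and 4.06 on both titled ketamine, a difference of 0.86 (standard error 0.166, adjusted p = 0.00795 in limma). Hoxa3, of the caudal hindbrain, read 2.90 and 3.21 on the arrays titled saline and 3.73 and 3.60 on those titled ketamine, a difference of 0.61 (adjusted p = 0.0137 in limma). Hoxa2 and Hoxa3 were also separate and below the background level throughout, and at such levels a log2 difference gives no reliable size.

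Hoxb2 and Hoxd1 were the genes of groups 1 to 5 that were higher and lay above the background level on both arrays titled ketamine. Hoxb2, a hindbrain gene that the segment factor Egr2 switches on directly in the embryo, read 4.62 and 4.56 on the arrays titled saline and 5.0 and 5.28 on those titled ketamine, a difference of 0.54 (standard error 0.128, adjusted p = 0.0169 in limma). It was above background on all 4 arrays. Hoxd1 read 4.33 and 4.36 on the arrays titled saline and 4.74 and 4.68 on those titled ketamine, a difference of 0.36 (adjusted p = 0.0360 in limma). After quantile normalization of the 4 arrays neither gene passed. The difference of Hoxb2 was then 0.41 (adjusted p = 0.0546 in limma) and that of Hoxd1 0.21.

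Hoxb4 went the other way. It read 4.04 and 4.29 on the arrays titled saline and 3.58 and 3.67 on those titled ketamine, a difference of -0.54 (standard error 0.125, adjusted p = 0.0161 in limma), with all values below background. Its paralogues Hoxa4, Hoxc4 and Hoxd4 differed by 0.22, 1.01 and 0.28, and of these Hoxc4 passed. Genes of these groups that lay above background throughout did not all pass. Hoxa4 read 5.51 and 5.67 on the arrays titled saline and 5.71 and 5.92 on those titled ketamine (adjusted p = 0.209 in limma). Hoxb1, which in the embryo marks a single hindbrain segment, read 5.42 on both arrays titled saline, the one Hox gene among the rows with equal values, and 5.53 and 5.35 on those titled ketamine (adjusted p = 0.881 in limma). Both genes were above background on all 4 arrays. Hoxb3 read 4.88 and 5.19 on the arrays titled saline and 5.27 and 5.36 on those titled ketamine, and Hoxd3 read 4.61 and 4.92 and then 4.99 and 5.14. Both lay above background on all arrays, with differences of 0.28 and 0.30 that did not pass. Hoxb5 read 4.17 and 4.87 on the arrays titled saline, the widest such gap of the 37 genes, and 4.62 and 4.88 on those titled ketamine.

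Of the 23 genes of groups 6 to 13, which pattern the trunk and tail, 4 were higher in limma, none was lower and 19 did not pass, where 23.4% of all rows were higher and 9.71% lower. The share of higher genes was thus near that of all rows. Past an unadjusted threshold of 0.05 in limma were also Hoxc8, upward (adjusted p = 0.0965), and Hoxb6, downward (adjusted p = 0.106). Hoxb7, of the upper trunk, read 4.87 and 5.32 on the arrays titled saline and 5.85 and 5.78 on those titled ketamine, a difference of 0.72 (standard error 0.159, adjusted p = 0.0135 in limma). It was above background on all 4 arrays. Hoxc13, a gene of hair and nail, read 3.63 and 3.55 on the arrays titled saline and 4.42 and 4.14 on those titled ketamine, a difference of 0.69 (adjusted p = 0.00691 in limma). Hoxa9, known from blood stem cells, read 3.75 and 3.85 on the arrays titled saline and 4.51 and 4.31 on those titled ketamine, a difference of 0.61 (adjusted p = 0.00843 in limma). Both stayed below background on all 4 arrays. Hoxd13, a gene of the digits, read 4.44 and 4.43 on the arrays titled saline and 4.76 on both titled ketamine, a difference of 0.33 (adjusted p = 0.0449 in limma) that was 0.18 and did not pass after quantile normalization. Ptprc and Cd3e, the 2 measured of 5 markers of blood and immune cells, differed by 0.00 and 0.30 and did not pass in limma, adjusted or not.

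The 19 other genes of groups 6 to 13 differed by -0.28 (Hoxc6) to 0.36 (Hoxc8). Of these, Hoxb9, Hoxc9, Hoxd9, Hoxd10, Hoxd11 and Hoxa13 lay above background on all 4 arrays. Hoxb9 read 5.15 and 5.26 on the arrays titled saline and 5.15 and 5.30 on those titled ketamine, and so overlapped. Hoxb6 read 4.60 and 4.66 on the arrays titled saline and 4.29 and 4.43 on those titled ketamine, and Hoxa10 read 4.47 and 4.67 and then 4.41 and 4.31. These 2 genes were above background on both arrays titled saline and on neither titled ketamine. After quantile normalization Hoxb6 and Hoxa10 were lower in limma together with Hoxb4, and after median centring of the arrays Hoxb6 was.

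Of the 11 genes that were higher, Hoxb2, Hoxd1, Hoxb7 and Hoxd13 lay above background on both arrays titled ketamine, Hoxa5 on array 2, and the other 6 on no array of either title. The median difference was 0.33 for groups 1 to 5 and 0.07 for groups 6 to 13, beside 0.13 for all tested rows and 0.05 for the olfactory receptor rows. Above the median of all rows lay 12 of 14 genes of groups 1 to 5 and 8 of 23 of groups 6 to 13. Both arrays titled ketamine lay above both titled saline for 11 of 14 genes of groups 1 to 5 and for 8 of 23 of groups 6 to 13, against 48.4% of all rows. They lay below for 1 of 14 and 3 of 23, against 21.5% of all rows. The scaling mattered for groups 6 to 13. Their median was -0.08 after quantile normalization and -0.07 after median centring, where that of groups 1 to 5 was 0.18 and 0.20, and it was -0.04 without titled saline array 1.

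Leaving out 1 array leaves 1 array in its title, and the fit loses precision whichever array it is. Calls from such fits cannot show which genes depend on a single array, so differences are given instead. Without titled ketamine array 1 or array 2, Hoxa2 differed by 0.86 each time and Hoxd13 by 0.33 each time. Hoxc4 differed by 1.18 and 0.83. Without titled saline array 1 or array 2, Hoxa2 differed by 0.61 and 1.11, and Hoxd13 by 0.34 and 0.33. Genes are not replicates of a condition, and the difference between the paralogue sets was not tested.

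**Figure D2:**
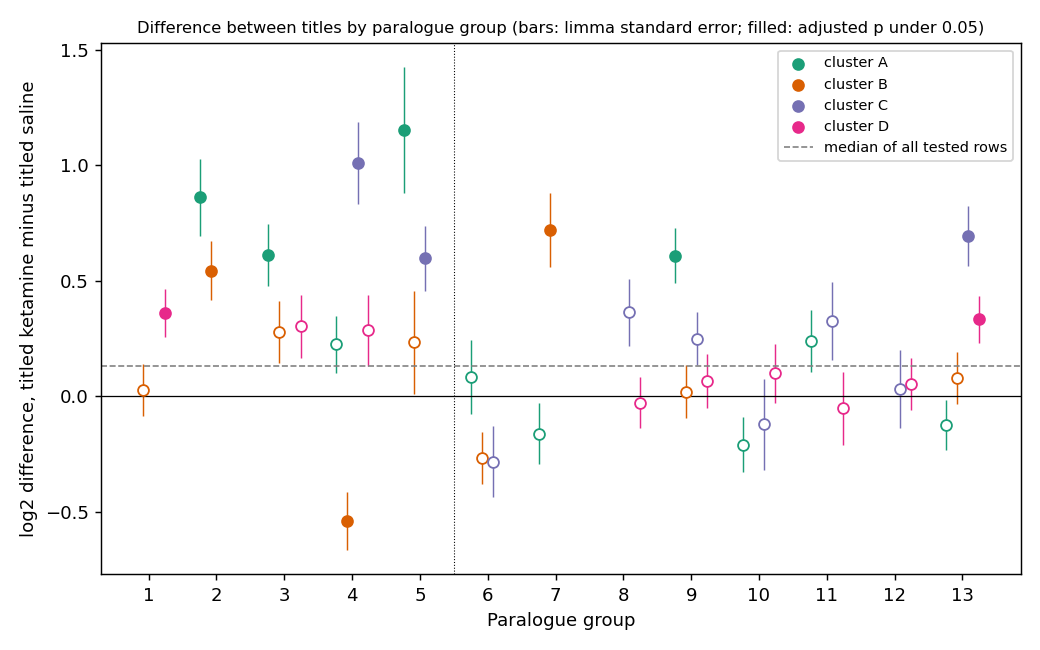
Log2 difference between the titles (y axis, bars give the limma standard error) against paralogue group (x axis), with a colour for each cluster, filled points for an adjusted p under 0.05 and a dashed line at the median of all tested rows. Left of the dotted line 13 of 14 genes lie above 0 (12 of 14 after quantile normalization or median centring), with Hoxb4 at -0.54. To its right 15 of 23 lie above 0 (8 of 23 after either rescaling). Of all 21789 tested rows, 14305 lie above 0 as deposited, a share near that of the 23 genes.

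Among groups with at least 3 members, the median difference was largest in group 5, at 0.60 over Hoxa5, Hoxb5 and Hoxc5, and lowest in group 6, at -0.27 over Hoxa6, Hoxb6 and Hoxc6. The genes of these groups lie next to each other in their clusters. None of group 6 passed limma, with Hoxb6 the one gene past an unadjusted p of 0.05. By cluster, 4 of 10 genes were higher in A, 2 of 9 in B, 3 of 9 in C and 2 of 9 in D, beside 23.4% of all rows, with median differences of 0.23, 0.08, 0.33 and 0.10. The shares in B and D were near that of all rows. In cluster C, Hoxc9 was the one gene above background on both arrays of either title. In cluster B, 7 of 9 genes were above it on both arrays titled saline and 6 on both titled ketamine.

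Since members that differed lay in several clusters, the bases around the start sites of Hoxa5, Hoxc4 and Hoxa2, which had the largest differences, are shown, with Hoxb4 as the one that was lower. Each window holds 250 bases before and 50 after the start of a RefSeq transcript on GRCm38.p6, 5′ to 3′ on the strand of the gene. Capitals mark matches on either strand to TGATNNAT (the core of a joint Hox and Pbx site), to TATAAA (the TATA box), to CCAAT (a motif of many promoters) or to AGGTCA (the unit that retinoid receptors bind in pairs), none of which overlapped another. The windows lie at chr6:52204538-52204837 (minus strand) for Hoxa5, chr15:103034145-103034444 (plus) for Hoxc4, chr6:52164782-52165081 (minus) for Hoxa2 and chr11:96318017-96318316 (plus) for Hoxb4.
Hoxa5: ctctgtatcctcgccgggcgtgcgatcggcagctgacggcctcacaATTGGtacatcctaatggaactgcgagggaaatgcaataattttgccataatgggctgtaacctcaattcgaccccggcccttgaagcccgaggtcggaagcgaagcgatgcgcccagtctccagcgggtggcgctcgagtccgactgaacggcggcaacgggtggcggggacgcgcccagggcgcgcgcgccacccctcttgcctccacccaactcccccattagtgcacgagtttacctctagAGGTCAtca
Hoxc4: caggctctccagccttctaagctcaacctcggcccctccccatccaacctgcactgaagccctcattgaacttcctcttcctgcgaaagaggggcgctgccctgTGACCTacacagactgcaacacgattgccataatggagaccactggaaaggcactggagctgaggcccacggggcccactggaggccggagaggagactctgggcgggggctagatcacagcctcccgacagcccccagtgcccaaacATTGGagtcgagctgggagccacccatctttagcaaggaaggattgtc
Hoxa2: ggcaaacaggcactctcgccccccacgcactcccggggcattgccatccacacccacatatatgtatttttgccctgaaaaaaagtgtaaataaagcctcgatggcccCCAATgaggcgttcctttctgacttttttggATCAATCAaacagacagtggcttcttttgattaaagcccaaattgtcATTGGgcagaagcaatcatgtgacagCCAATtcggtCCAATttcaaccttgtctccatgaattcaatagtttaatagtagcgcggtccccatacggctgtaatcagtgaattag
Hoxb4: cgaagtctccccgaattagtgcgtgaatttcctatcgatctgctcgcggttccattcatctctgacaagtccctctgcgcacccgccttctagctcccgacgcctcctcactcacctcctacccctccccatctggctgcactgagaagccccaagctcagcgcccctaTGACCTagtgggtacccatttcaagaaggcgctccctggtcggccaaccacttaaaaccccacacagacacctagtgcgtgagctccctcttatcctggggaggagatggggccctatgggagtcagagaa

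AGGTCA matched once each in the windows of Hoxa5, Hoxc4 and Hoxb4 and TGATNNAT once in that of Hoxa2, which also held 4 matches to CCAAT. The windows of Hoxa5 and Hoxc4 held 1 match to CCAAT each. The gene that was lower thus shared the AGGTCA match with 2 of those that were higher. Of all 32851 windows, 16.3% held AGGTCA, 8.85% TGATNNAT, 37.4% CCAAT and 13.6% TATAAA. Of the 23 windows of 21 Hox genes, 7 held AGGTCA, 3 TGATNNAT, 14 CCAAT and 3 TATAAA. Hox windows were richer in CpG, with a median of 15 CpG (range 4 to 45) against 7 in all windows. Among the windows shown, Hoxa5 had 29 CpG, Hoxb4 had 14, and Hoxc4 and Hoxa2 had 9 each. A match describes letters only.

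Arrays of the same title also differed in their Hox values. Between the arrays titled saline, 32 of 37 genes read higher on array 2 than on array 1, with medians of 0.30 for groups 1 to 5 and 0.19 for groups 6 to 13. Past 1.3-fold upward were 4 of 14 and 7 of 23 genes, against 5.67% of all rows, and no gene was past it downward. Olfactory receptor rows read higher on array 2 by a median of 0.10, where the median of all rows was 0.00. After quantile normalization the medians of both Hox sets were 0.22 and 0.08. Over all 37 genes the median between the arrays titled saline, 0.25, was as large as that between the titles, 0.23. On titled saline array 1, where most Hox values were lower, the 15 cerebellar markers averaged 6.48 against 5.90 on array 2, and their part in the Hox values was not tested.

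Between the arrays titled ketamine the medians were 0.12 for groups 1 to 5 and 0.07 for groups 6 to 13. One gene of the 37, Hoxa5, was past 1.3-fold upward, against 3.11% of all rows. The difference between the titles was larger than both differences within titles for 10 of 14 genes of groups 1 to 5 and for 9 of 23 of groups 6 to 13, against 59.4% of all rows.

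**Figure D3:**
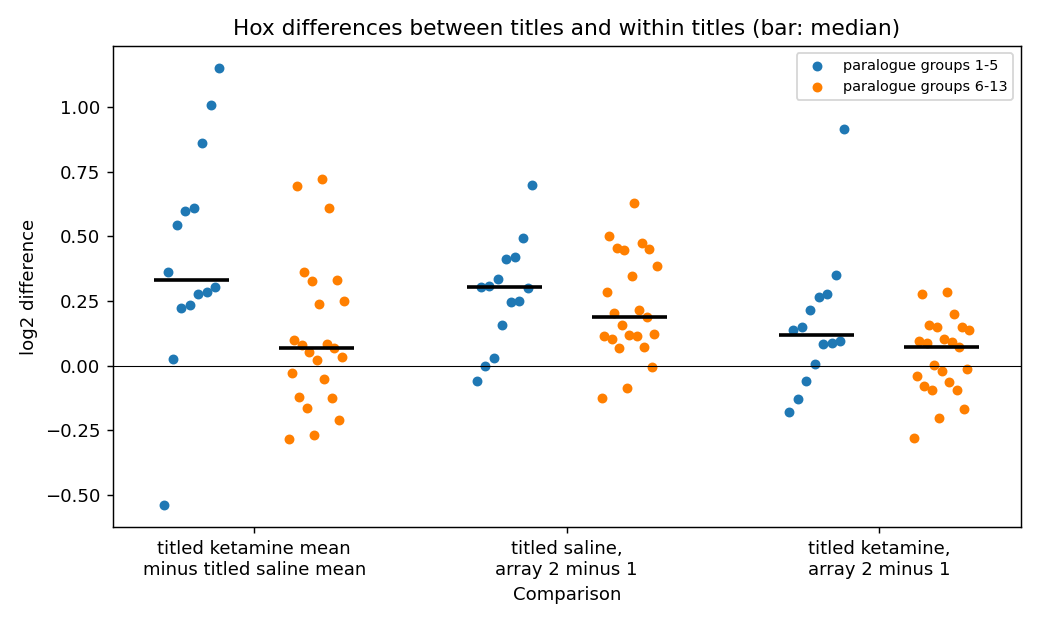
Log2 differences (y axis) of the Hox genes between the titles and between the 2 arrays of each title (x axis), for paralogue groups 1 to 5 and 6 to 13 in separate colours, with the median as a bar. Between the arrays titled saline 32 of 37 points lie above 0, and Hoxa5 stands alone at 0.91 between the arrays titled ketamine.

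Hoxa5 read 4.50 on titled ketamine array 1 and 5.42 on array 2, and 43 of all rows (0.197%) read higher on array 2 by at least as much. Hoxc4 and Hoxb2 were higher on array 2 by 0.35 and 0.28. Several genes of pontine and medullary neurons were higher on the same array. Slc6a5, the glycine transporter of inhibitory neurons, read 8.14 and 8.84 on arrays 1 and 2, and Dbh, an enzyme of noradrenaline synthesis, 5.10 and 5.73. Tph2, the serotonin-synthesising enzyme of raphe neurons, read 3.67, below background, and 6.0. On the arrays titled saline Tph2 read 6.15 and 6.09, so that array 2 did not exceed them. Of the whole list of 16 measured genes of pons and medulla, 10 were higher on array 2, 4 of them past 1.3-fold, with a median of 0.18. Of all 21789 rows, 10681 were higher on array 2, and 3.11% were past 1.3-fold upward. The rest of the list were lower on array 2, led by Lbx1 at -0.37 and Lmx1b at -0.28. The mean of this list was 5.17 and 5.30 on the arrays titled saline and 5.25 and 5.51 on those titled ketamine, and 13 of the 16 lay above background on both arrays titled saline and 12 on both titled ketamine. Of 10 choroid plexus genes, 9 were higher on array 2, with a median of 0.31, and their mean was 6.17 and 6.18 on the arrays titled saline and 6.88 and 7.18 on those titled ketamine. Prph, a filament of peripheral and motor neurons, read 5.57 and 6.46. The part of these cells in the Hoxa5 values was not tested.

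Between the titles, 5 of 16 genes of pons and medulla were higher and 3 lower, beside 23.4% and 9.71% of all rows. After quantile normalization 4 were higher and 5 lower, beside 15.2% and 14.1% of all rows. Slc6a5 differed by 3.01 and Dbh by 1.20, and Isl1, a factor of motor and other neurons, by -1.47. Tph2 differed by -1.29 and did not pass (adjusted p = 0.157 in limma). The list had no common direction, with a median of 0.14. Of 11 factors of midbrain and anterior hindbrain, regions in front of the Hox domain, 5 were higher and none was lower in limma, adjusted or not, while after quantile normalization 4 were higher and 1 lower. En2, which marks the Hox-free territory of midbrain and cerebellum, read 4.85 and 4.68 on the arrays titled saline and 9.19 and 8.76 on those titled ketamine, a difference of 4.21 that exceeded that of every Hox gene. Irx3, Otx2 and Pax2 differed by 1.32, 1.08 and 0.93. Of 10 choroid plexus genes, among them Otx2, 9 were higher and none lower, with a median of 0.91, led by Kcne2 at 1.29. Of 7 markers of spinal cord, neural crest and ganglia, 1 was higher, Avil at 0.50, and 1 lower, Isl1.

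The proteins that bind DNA together with Hox proteins read above the background level. These TALE cofactors lend Hox proteins much of their choice of sites. Of 8 measured of 9, all above background on all 4 arrays, 3 were higher, 2 lower and 3 did not pass. Of all rows, 23.4% were higher and 9.71% lower. Meis1 read 6.45 and 6.02 on the arrays titled saline and 8.86 and 8.55 on those titled ketamine, a difference of 2.47 (adjusted p = 0.000119 in limma). Its relative Meis2 read 8.83 on both arrays titled saline and 6.40 and 7.42 on those titled ketamine, a difference of -1.92 (adjusted p = 0.00303 in limma). Both were separate between the titles, in opposite directions. Pknox1 and Pknox2 were another such pair, with differences of 0.60 and -0.94. All these values exceeded the shift of 0.13 in the median of all rows.

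Of 20 measured of 22 genes of retinoic acid signalling and other inputs to the Hox clusters, 3 were higher, 5 lower and 12 did not pass. The shares of all rows were 23.4% higher and 9.71% lower. Aldh1a1, an enzyme that makes retinoic acid, was higher by 1.85 and read 8.49 and 8.15 on the arrays titled saline against 10.22 and 10.13 on those titled ketamine. Rxrg and Rarb, retinoid receptors, were lower at -2.43 and -0.98, and Egr2, the segment factor upstream of Hoxb2, at -0.72. Egr2 and Hoxb2 had opposite signs. Their link is known from the embryo and was not tested in these samples. Of 15 measured of 16 Polycomb and trithorax regulators, the chromatin proteins that keep Hox genes off or on, 7 were higher and none was lower, beside 23.4% and 9.71% of all rows. At an unadjusted p under 0.05 in limma, 8 were higher and 0 lower, where 6983 of the 21789 rows were higher and 2749 lower. After quantile normalization 5 were higher, beside 15.2% of all rows. Eed, Ezh2 and Suz12, the core of the complex that places the repressive H3K27 methyl mark, differed by 1.40, 1.21 and 0.66, and Kdm6a, which removes it, by 1.04. Kdm6a and the core genes named therefore differed in the same direction. Ezh1, also on the list, differed by 0.27 and did not pass (adjusted p = 0.0842 in limma).

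**Figure D4:**
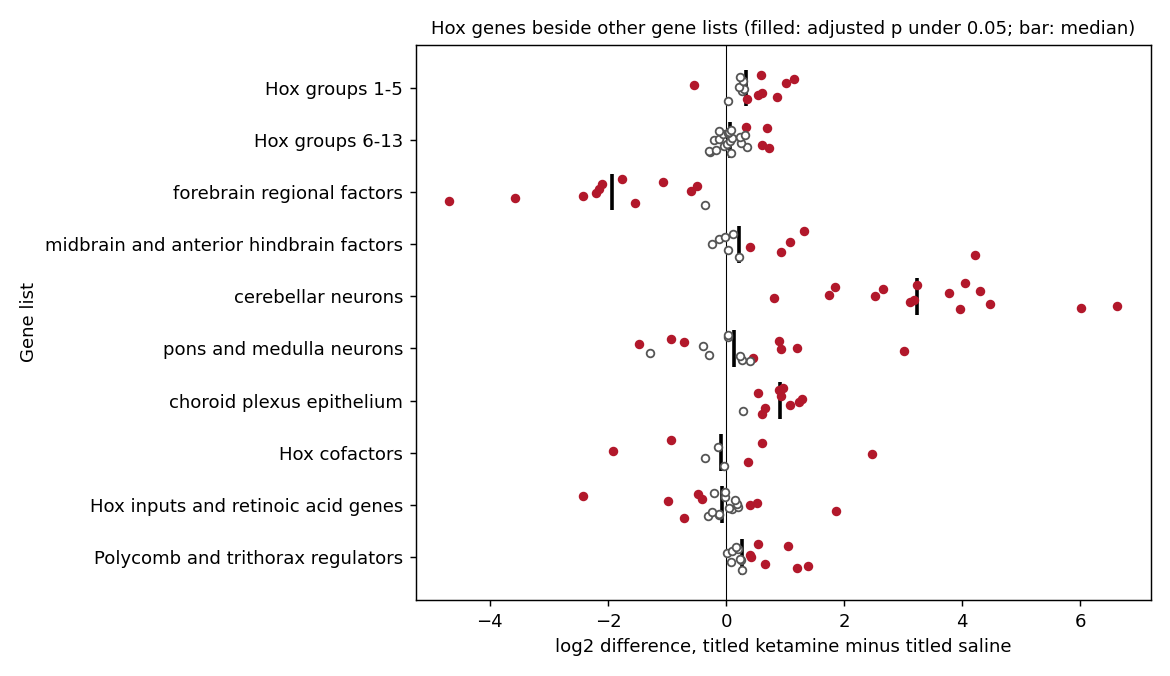
Log2 differences between the titles (x axis) for the Hox genes and for other gene lists (y axis), with filled points for an adjusted p under 0.05 and the median as a bar. The Hox differences, from -0.54 to 1.15, span less than those of the forebrain list, with Tbr1 at -4.69, and of the cerebellar list, with Gabra6 at 6.62.

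Genes around the clusters were read for comparison. Of 11 measured of 12 neighbours of the clusters, 1 was higher and 1 lower, beside 23.4% and 9.71% of all rows. These were Hibadh at 0.62 beside cluster A and Skap1 at -0.55 beside cluster B, and the median was -0.04. The clusters also hold microRNAs, some of which are known to target Hox transcripts. Of 8 measured of 13 microRNAs and noncoding RNAs of the clusters, none was higher or lower in limma, with 1 lower at an unadjusted p under 0.05, and Mir615 was the one above background on both arrays of either title. Mir10a read 2.15 on both arrays titled saline and 2.03 and 2.11 on those titled ketamine, and Mir10b 2.01 and 1.96 and then 2.02 and 2.08. Mir196a-1, which lies in cluster B, read 2.86 and 2.97 on the arrays titled saline and 2.44 and 2.69 on those titled ketamine, a difference of -0.35 (adjusted p = 0.0735 in limma). After quantile normalization or median centring 1 of the 8 passed as lower. The choice of Mir615, Mir10a and Mir10b was made with their values in view.

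The mature strands are shown because they form families across the clusters. They are RefSeq sequences on GRCm38.p6, written 5′ to 3′ with the seed (bases 2 to 8) in capitals. miR-10a-5p lies at chr11:96317186-96317208 (plus strand) in cluster B and miR-10b-5p at chr2:74726074-74726096 (plus) in cluster D. miR-196a-5p comes from chr11:96265187-96265208 (plus) and chr15:102973365-102973386 (plus), and miR-196b-5p from chr6:52230129-52230150 (minus).
miR-10a-5p: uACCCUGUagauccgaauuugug
miR-10b-5p: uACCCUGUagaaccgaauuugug
miR-196a-5p: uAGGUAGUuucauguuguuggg
miR-196b-5p: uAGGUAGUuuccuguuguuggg

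Counted from the 5′ end, the members of the miR-10 pair differ by U12A and those of the miR-196 pair by A12C, outside the shared seeds. The array rows of Mir10a, Mir10b, Mir196a-1, Mir196a-2 and Mir196b were not above the background level on any array. Whether their probes read the precursor or the transcript around it is not known, and they give no level of the mature strands.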

How the data were processed

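RNA of 4 samples had been hybridised to Affymetrix Mouse Gene ST arrays. The authors deposited log2 RMA values (background-corrected, normalized and summarised per gene, core exons, Affymetrix Expression Console per the labels). RMA compresses differences near background, and whether the 4 arrays were summarised together is not given in the sources used here. Of 35556 rows, 21789 carried 1 gene symbol, 1621 several and 12146 none, by the platform annotation. The arrays have no read depth, and their number limits the precision. Groups followed the titles.

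Titles were compared with limma 3.58.1 in R 4.3.3 (lmFit and eBayes, tested on simulated data), with Benjamini-Hochberg adjustment over the 21789 rows and a threshold of 0.05. Tables were made with Python 3.11.15 and pandas 2.3.3. Medians over genes are descriptions. Where a listed gene had several rows, the brightest was used. The Hox genes and the lists were chosen with earlier results of these data known. Named were all Hox genes that passed, lay above the 95th percentile of olfactory receptors, were nearest to it or differed most (5 each way), and up to 4 genes per other list with the largest difference. Tried as alternatives were quantile normalization, median centring, trend and robust moderation, leaving out dim rows, a replicate block, leaving out each array, the mean over all rows of a gene, the 90th and 99th percentiles and a boundary after group 4. All 37 Hox genes matched RefSeq by gene number. Promoter and microRNA sequences are those of RefSeq (GRCm38.p6), with 300 bases per promoter window.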

Additional observations from a re-analysis of the deposited data

How the results depend on the processing

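Of all rows, 5109 were higher and 2115 lower as deposited. After quantile normalization 3311 were higher and 3074 lower, and after median centring 3210 were higher and 3213 lower. Leaving out 1 array in turn gave 0 to 3171 higher and 0 to 1403 lower, and for Hox genes 0 to 7 higher and 0 to 1 lower, with no call without either array titled ketamine. Of the 37 Hox genes, 8 were higher and 3 lower after quantile normalization, beside 15.2% and 14.1% of all rows. After median centring 9 were higher and 2 lower, beside 14.7% of all rows each way. Once dim rows were left out, 4 of 19 Hox genes were higher and 0 lower, where 4924 and 2034 of all kept rows were. Rows above the background level on both arrays of either title were kept. Hoxd1 was kept through the arrays titled ketamine alone, so its call there is no separate support. The median difference of groups 1 to 5 was 0.25 to 0.50 on leaving out 1 array. That of groups 6 to 13 was -0.0817 after quantile normalization, -0.0702 after median centring and -0.0382 to 0.19 on leaving out 1 array, with the negative value without titled saline array 1. After quantile normalization the medians between the arrays titled saline were 0.22 for groups 1 to 5 and 0.081 for groups 6 to 13.

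With the 99th percentile as background, 1 gene of groups 1 to 5 was above it on both arrays titled ketamine and 2 on both titled saline, and of groups 6 to 13, 1 and 0. With the 90th, 8 genes of groups 1 to 5 were above it on both arrays titled saline and 10 on both titled ketamine, and of groups 6 to 13, 15 and 15, so that the gap of 12 against 8 was absent. The replicate block gave 11 higher and 1 lower Hox genes (all rows 5896 and 2354). The deviations of samples with the same number correlated at 0.034 over the tested rows, so the samples share only a number. Of the values of single Hox genes under an alternative, 45 lost the threshold and 67 kept direction and side. The cause of these changes was not tested.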

Other observations

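Other rows of the Hox clusters belonged to no comparison. The row shared by Hoxb8 and Hoxb7 read 3.60 and 3.71 on the arrays titled saline and 3.91 and 3.98 on those titled ketamine, below the olfactory receptor level on all 4 arrays. Hoxaas2, an antisense transcript of cluster A, read 3.39 and 3.58 on the arrays titled saline and 4.02 and 3.92 on those titled ketamine. The dimmer of the rows of Hoxd3os1, antisense to Hoxd3, read 3.70 and 3.76, and 4.04 and 3.92. In these 3 rows both arrays titled ketamine lay above both titled saline, at levels below background. The same order held in 48.4% of all tested rows. Across the 37 Hox genes the values correlated at 0.952 between the arrays titled saline and at 0.940 between those titled ketamine, a description across genes, which are not independent replicates.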
